A study of Homo sapiens with 6 samples.

Results

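The regions described here are strong TRIM24 sites of LNCaP-abl cells that had no counterpart in LNCaP cells. They are the peaks of the LNCaP-abl list with a score of at least 50 that overlapped, by 1 bp or more, no peak of either LNCaP list. They were chosen by this score, which is the authors' own value for each peak (−log10 of its p-value or its q-value), and by the lack of overlap. The rule took 1375 regions of the 20621 LNCaP-abl peaks (6.67%, exact 95% interval 6.33 to 7.02), out of 37470 peaks in all 3 lists. The lists come from ChIP-seq, in which chromatin bound by TRIM24 is pulled down with an antibody and sequenced, with 1 library per condition, so nothing has a replicate check and no difference between conditions was tested. LNCaP is an androgen-dependent human prostate cancer line. Its cells were starved of hormone for 72 h in medium with charcoal-treated serum and then given ethanol vehicle, or 10 nM of the androgen dihydrotestosterone (DHT), for 4 h. LNCaP-abl, its castration-resistant derivative, was kept in charcoal-treated serum throughout and given vehicle for 4 h. The labels name a single line for each model. The lists held 9744 peaks for LNCaP with vehicle and 7105 for LNCaP with DHT.

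TRIM24 is a coregulator of nuclear receptors and an E3 ubiquitin ligase. Its PHD finger and bromodomain, side by side at the end of the protein, read the unmodified and acetylated tail of histone H3 together. In prostate cancer it is known as a coactivator of the androgen receptor, and it is degraded through the adaptor SPOP, a gene often mutated in this cancer. Sites found in LNCaP-abl and not in LNCaP bear on the question of where TRIM24 sits once growth no longer needs added androgen. All positions are in the build hg19. No annotation or sequence of that build was used here, so sites are named by position, gene features are not given and no sequence is shown.

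The score chose these regions, so their scores are a description. Of the 7014 LNCaP-abl peaks with a score of at least 50, 19.6% (18.7 to 20.6) had no LNCaP peak, against 57.8% of all 20621 LNCaP-abl peaks. Read from the other side, the 1375 regions made up 11.5% (10.97 to 12.1) of the 11919 LNCaP-abl peaks without a LNCaP peak, and the other 10544 scored below 50. Their scores ran from 50.1 to 266 with a median of 68.1 and quartiles of 57.5 and 84.95. The strong LNCaP-abl peaks that did have a LNCaP peak, 5639 in number, reached 793 with a median of 96.5. A score of 50 was far up the LNCaP lists: 102 vehicle peaks (1.05%) and 82 DHT peaks (1.15%) reached it, against 34.0% of the LNCaP-abl list. Scores rise with sequencing depth, which the lists do not give, so a score of 50 need not mean the same in different libraries.

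The share of strong LNCaP-abl peaks without a LNCaP peak became smaller from each score range to the next. Between 50 and 75 it was 35.6% (33.7 to 37.5, 870 of 2447 peaks). Between 75 and 100 it was 18.8% (16.95 to 20.7, 324 of 1726). Between 100 and 150 it was 9.13% (7.82 to 10.6, 159 of 1741). At 150 and over it was 2.00% (1.26 to 3.01, 22 of 1100). Over the same ranges the share of peaks found in both LNCaP lists went from 26.6% through 43.2% and 63.5% to 90.2%. Peaks shared with vehicle alone made up 27.99%, 29.3%, 19.01% and 6%. Those shared with DHT alone made up 9.81%, 8.81%, 8.33% and 1.82%. The 1375 regions were thus mostly from the lower end of the strong range, and the 22 at 150 and over stand out as strong LNCaP-abl sites at a level where 1078 of 1100 had a LNCaP peak.

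**Figure D1:**
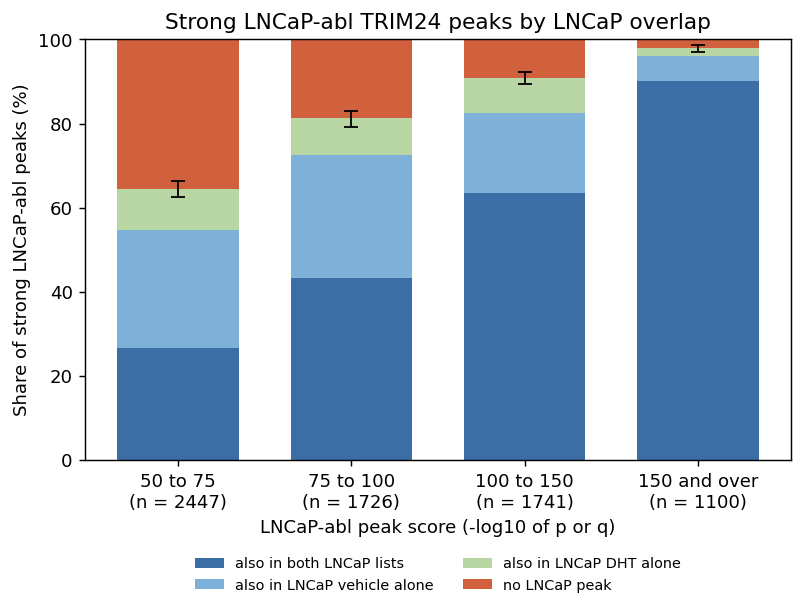
Share of strong LNCaP-abl TRIM24 peaks (vertical axis, %) in 4 ranges of their score (horizontal axis, −log10 of its p-value or its q-value), split by whether a peak of both LNCaP lists, of vehicle alone, of DHT alone or of neither overlapped them; black bars are exact 95% intervals of the share in neither, drawn at its lower edge. The share in neither goes from 35.6% at 50 to 75 to 2.00% at 150 and over.

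Where a strong LNCaP-abl peak did have a LNCaP counterpart, that counterpart had a far lower score. The best overlapping LNCaP peak, taken over both lists, had a median score of 8.39, with quartiles of 6.08 and 12.3. Medians over all single peaks were 6.46 for the vehicle list and 6.82 for the DHT list. The first value takes the highest of any overlapping peaks, so it is not like for like with these medians. The best overlapping score was under 10 for 63.5% (62.2 to 64.7) of the 5639 shared peaks and under 5 for 12.4% (11.5 to 13.3). The share under 5 was 22.4% (20.4 to 24.6) among LNCaP-abl scores of 50 to 75, 14.6% (12.7 to 16.5) at 75 to 100, 7.77% (6.50 to 9.21) at 100 to 150 and 1.67% (0.993 to 2.63) at 150 and over. LNCaP lists began at scores of 2.02 under vehicle and 2.05 under DHT. The absence of a LNCaP peak therefore says that no peak passed the authors' cutoff there, not that TRIM24 was absent. If LNCaP peaks had to score at least 5 to count, 2074 strong LNCaP-abl peaks would have no counterpart.

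The highest-scoring site of the 1375 was chr7:27169494-27170888, 1395 bp wide, with a score of 266. It ranked 257th in the LNCaP-abl list. From general knowledge of the genome, and not from an annotation used here, this position is in the HOXA cluster, a run of homeobox genes that set position along the body axis. The nearest vehicle peak was 19404 bp away with a score of 4.92, and the nearest DHT peak was 33470 bp away with a score of 4.95. Within 150 kb to either side the LNCaP-abl list had 26 peaks, the vehicle list 4 and the DHT list 3. Of the LNCaP-abl peaks there, 4 with scores of 55.5 to 79.2 did overlap a LNCaP peak. LNCaP peaks in the stretch scored between 4.92 and 9.84 under vehicle and between 4.41 and 14.4 under DHT. The site with a score of 266 thus had no LNCaP peak, while these neighbours with lower scores did. A second region of the set lay on the same stretch, from 27274942 to 27275747, with a score of 64.2.

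**Figure D2:**
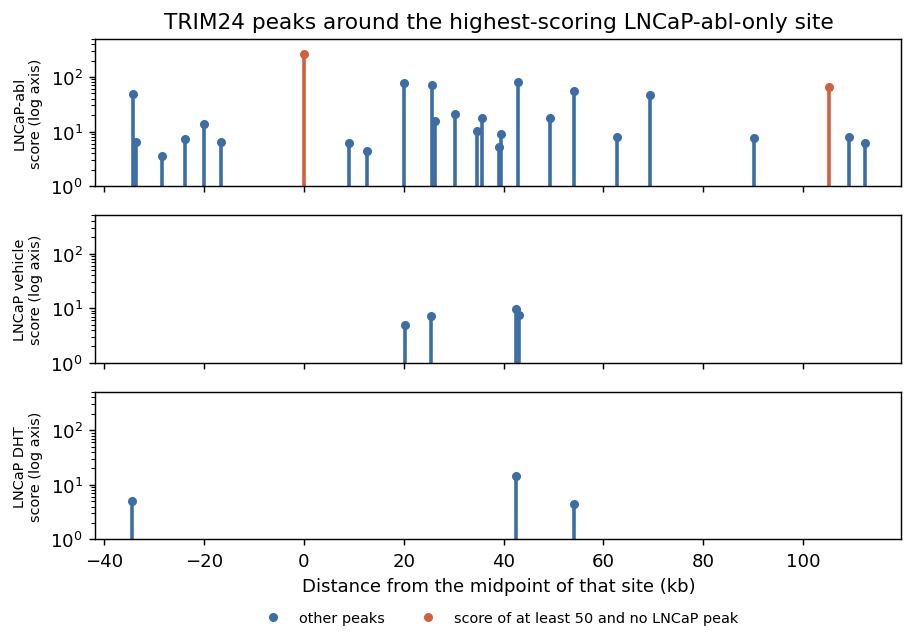
Scores of TRIM24 peaks (vertical axes, −log10 of their p-value or their q-value, logarithmic) against distance from the midpoint of the highest-scoring LNCaP-abl-only site (horizontal axis, kb), with a panel for each list and a stem for each peak. The site at 0 kb stands at 266 in LNCaP-abl with no stem beneath it in the LNCaP panels, while 4 strong LNCaP-abl peaks to its right have LNCaP peaks beneath them.

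The next sites differed in how far they were from any LNCaP peak. The site at chr8:33579604-33580313 scored 254 and was remote, with its nearest vehicle peak 155122 bp and its nearest DHT peak 155296 bp away. The nearest other LNCaP-abl peak was as far, at 154915 bp. The site at chr7:77045157-77046183 scored 230.2 and had no vehicle peak within 119917 bp and no DHT peak within 119953 bp. A weak LNCaP-abl peak with a score of 5.996 lay 98 bp from it. The site at chr20:30196067-30196738 scored 201 and was closer to LNCaP peaks, with one under vehicle 3822 bp away that scored 5.29.

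Other leading sites included chr13:115079560-115080381 with a score of 199, and chr8:110656289-110657340 with a score of 189. The latter had no vehicle peak within 2986220 bp, but a DHT peak with a score of 3.12 lay 103862 bp away. chr3:184429353-184430073 scored 188, with the nearest vehicle peak 142247 bp and the nearest DHT peak 142295 bp away. chr6:24494884-24495720 scored 182, and its nearest vehicle peak, 171278 bp away, was itself strong at 79.4. chr11:518478-519156 scored 177.1, with a vehicle peak of score 3.66 at 15624 bp. The remaining 3 of the 12 highest were all in 1 megabase of chromosome 8 that is described below.

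Taking all 22 sites with scores of 150 and over, they fell on 11 chromosomes, with 6 on chromosome 8, 4 on chromosome 20 and 3 on chromosome 7. Widths were between 483 and 1395 bp, with a median of 861 bp. The distance to the nearest LNCaP peak of either list ran from 2399 to 171278 bp. For 5 of the 22 it was within 10 kb, and for 7 it was beyond 100 kb. A LNCaP peak lay within 1 kb of 0 of the 22. The 10 outside the 12 highest scored between 150.4 and 166.

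At the lower limit, the members just inside it were chr10:71211000-71211874 with a score of 50.1, chr5:134094147-134094899 with 50.1, and chr11:60928437-60929304 with 50.3. The peaks just outside, also without a LNCaP peak, included chr1:59042502-59043351, chr10:30348089-30348738 and chr17:26897986-26898926, each with a score of 49.98. No gap in score marked the limit.

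Width was not part of the rule, although a wider peak has more room to overlap another. LNCaP-abl-only strong peaks were narrower than strong LNCaP-abl peaks with a LNCaP peak in each score range. Over the whole set the median was 770 bp (order-statistic 95% interval 753 to 787) against 1023 bp (1008 to 1036). At scores of 50 to 75 the medians were 746.5 bp (730 to 764) and 927 bp (910 to 949). At 75 to 100 they were 815.5 bp (776 to 863) and 1025 bp (996 to 1054), and at 100 to 150 they were 803 bp (718 to 861) and 1083.5 bp (1059 to 1110). At 150 and over they were 861 bp (721 to 1027) and 1079 bp (1041 to 1111), with 22 sites in the first group. Quartile ranges of the 2 groups overlapped throughout: at 50 to 75 the quartiles were 585.5 and 945 bp against 708 and 1190 bp. The ranges did not fully match the groups on score. Median scores of the LNCaP-abl-only peaks were lower in each range, at 60.4 against 63.9, 85.1 against 86.5, 110 against 120 and 171 against 198. Overlap was also judged with every peak of the 3 lists set to 400 bp around its midpoint. The difference in median deposited width was then 185 bp, against 253 bp with the peaks as deposited. This rule is not neutral to width either. It can miss a LNCaP peak that lies off the centre of a wide LNCaP-abl peak. Requiring a reciprocal overlap of at least 50% turned the difference to −189.5 bp. That rule cannot be met by a LNCaP peak less than 50% as wide as the LNCaP-abl peak. Under it the unshared group held 5060 peaks with a median width of 1025 bp. The cause of the reversal was not tested.

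**Figure D3:**
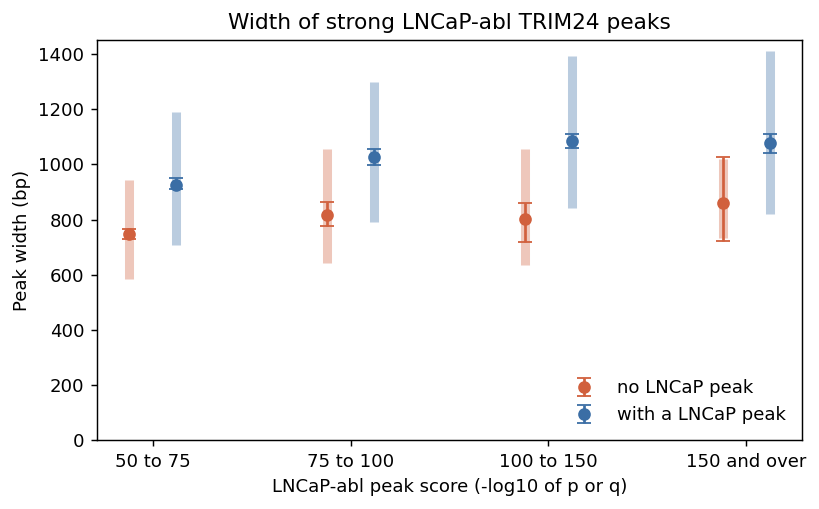
Width of strong LNCaP-abl TRIM24 peaks (vertical axis, bp) in 4 ranges of score (horizontal axis), without a LNCaP peak (orange) and with one (blue); points are medians, thin capped bars their 95% intervals and pale thick bars the quartiles. The orange medians lie between 746.5 and 861 bp and the blue ones between 927 and 1083.5 bp.

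The widest sites were not the strongest. chr17:2302740-2305607 spanned 2868 bp with a score of 113, and a further strong LNCaP-abl-only peak with a score of 53.6 lay 141 bp from it. chr22:31741192-31743826 spanned 2635 bp with a score of 136, and a DHT peak with a score of 3.94 lay 1023 bp away. chr11:694207-696563 spanned 2357 bp with a score of 60.4. chr14:105633571-105635702 spanned 2132 bp with 56.3, and chr22:19164801-19166809 spanned 2009 bp with 65.1. Across the 1375 peaks, score and width had a Spearman correlation of 0.13, given as a description because all come from 1 library.

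Most of the sites were well apart from LNCaP peaks. The median distance to the nearest LNCaP peak was 50366 bp. A LNCaP peak lay within 1 kb of 72 sites (5.24%, 4.12 to 6.55), within 10 kb of 249 (18.1%, 16.1 to 20.2) and within 100 kb of 969 (70.5%, 67.98 to 72.9). Weaker LNCaP-abl-only peaks were closer to LNCaP peaks at short range, with 10.9% (10.4 to 11.6) within 1 kb and 27.96% (27.1 to 28.8) within 10 kb. At 100 kb the shares were near each other, with 72.8% (71.96 to 73.7) for the weaker peaks. The nearest vehicle peak was a median of 61308 bp away and the nearest DHT peak 75153 bp, from lists of unequal length.

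A small number of sites were in stretches with no LNCaP peak for over 1 Mb, 12 in all. The most remote was chr4:22516918-22518189, with a score of 85.4, and 1956132 bp to the nearest LNCaP peak. chrX:110924272-110925121 followed, with a score of 58.2, 1678454 bp from a DHT peak and 2626289 bp from a vehicle peak. Its nearest other LNCaP-abl peak was 884901 bp away. On chromosome 6, the sites from 88032065 to 88032507 and from 50818008 to 50818536 had scores of 67.0 and 64.0 and their nearest LNCaP peaks were 1678134 and 1623106 bp away. In LNCaP-abl itself the nearest other peak was 118080 bp from the chromosome 4 site and 85076 bp from the first of the chromosome 6 sites, while the second had a peak with a score of 21.998 at 172 bp.

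Within the LNCaP-abl list, the sites had about as many close neighbours as the strong shared peaks. Another LNCaP-abl peak lay within 10 kb of 35.6% (33.0 to 38.2) of them, of 34.9% (33.6 to 36.1) of the strong shared peaks and of 50.4% (49.5 to 51.4) of the weaker LNCaP-abl-only peaks. Within 1 kb, 245 sites had another LNCaP-abl peak. The nearest one was a weaker LNCaP-abl-only peak for 161 of these, a peak with a LNCaP counterpart for 67, and another of the 1375 for 17. Joining LNCaP-abl peaks less than 1 kb apart left 1289 strong regions without a LNCaP peak. A strong shared peak lay within 100 kb of 56.7% (53.99 to 59.3) of the sites. Another of the 1375 lay within 100 kb of 24.5% (22.3 to 26.9). Among the 5639 strong shared peaks, 55.6% (54.3 to 56.9) had another strong shared peak within 100 kb. The classes differ in size, so the 24.5% cannot be set against the other shares.

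The sites were spread thinly, in 889 windows of 1 Mb, of which 590 held 1 site. There were 41 windows with 4 or more, together holding 195 sites, and 7 with 6 or more. The windows were ranked by their number of sites, and not by the share of their strong peaks. The fullest was chromosome 8 from 144 to 145 Mb, near the end of the long arm, with 10 sites. It held 63 LNCaP-abl peaks in all, of which 9 more were strong and shared and 34 were weak and LNCaP-abl-only, beside 27 vehicle and 15 DHT peaks. Of its 10 sites, 3 were among the 12 highest: 144373072 to 144373956 with a score of 186, 144349004 to 144350143 with 174 and 144922670 to 144923851 with 169. The site from 144853052 to 144854537 scored 137. The other 6 scored between 51.7 and 83.97. The distance to the nearest LNCaP peak was between 1283 and 48609 bp for the 10. Along the megabase, the first 6 of the sites, spread over 274 kb, all came before the first strong shared peak, which lay 311 kb from the first site. The 9 strong shared peaks lay between 311 and 562 kb, with 2 of the sites among them, at 342 and 504 kb, and the last 2 sites came after, at 574 and 603 kb. From 140 to 150 Mb of chromosome 8, 15 of 72 strong LNCaP-abl peaks had no LNCaP peak (20.8%, 12.2 to 32.0). Over the whole of chromosome 8 the share was 19.5% (15.3 to 24.2). Both were near the 19.6% of the genome.

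**Figure D4:**
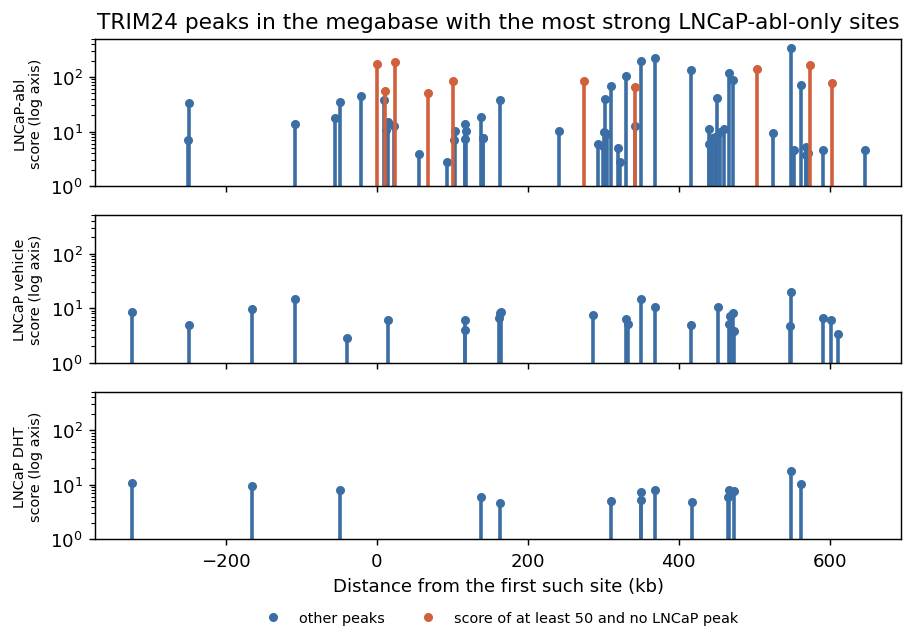
Scores of TRIM24 peaks (vertical axes, −log10 of their p-value or their q-value, logarithmic) in the megabase of chromosome 8 with the most strong LNCaP-abl-only sites, against distance from the first such site (horizontal axis, kb), with a panel for each list. The 10 orange stems, with scores of 51.7 to 186, stand among 53 other LNCaP-abl peaks, of which the strong shared ones lie from 311 to 562 kb.

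Chromosome 19 from 18 to 19 Mb held 8 sites and as many strong shared peaks, with 21 vehicle and 13 DHT peaks. Its highest site was 18271875 to 18272506, with a score of 139. Chromosome 11 from 65 to 66 Mb held 7 sites beside 20 strong shared peaks, and chromosome 16 from 30 to 31 Mb 7 beside 16. Chromosome 17 from 79 to 80 Mb held 6 beside 18, and chromosome 19 from 1 to 2 Mb 6 beside 22. In the last of these the LNCaP-abl list had 129 peaks. Chromosome 3 from 52 to 53 Mb was poorer in peaks, with 27 in LNCaP-abl, and held 6 sites beside 8 strong shared ones. Its leading sites were 52089577 to 52090930 with a score of 104 and 52719406 to 52720116 with 103. In the 10 Mb around them, the share of strong peaks without a LNCaP peak was 31.9% (19.1 to 47.1). It was 30.9% for chromosome 19 from 10 to 20 Mb and 23.3% from 0 to 10 Mb. For chromosome 11 from 60 to 70 Mb it was 21.0%, for chromosome 16 from 30 to 40 Mb 28.1%, and for chromosome 17 from 70 to 80 Mb 18.4%.

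Some megabases with fewer sites had few strong shared peaks. Chromosome 6 from 31 to 32 Mb held 5 sites and 2 strong shared peaks, and its neighbour from 30 to 31 Mb held 5 and 6. Both are part of the major histocompatibility region, from general knowledge of the genome. Chromosome 12 from 105 to 106 Mb held 4 sites, 1 strong shared peak, 2 vehicle peaks and 0 DHT peaks. Chromosome 10 from 88 to 89 Mb and chromosome 5 from 43 to 44 Mb each held 4 sites and 1 strong shared peak. These windows were chosen after their values were seen.

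Chromosomes differed in the share of strong LNCaP-abl peaks that had no LNCaP peak, around the 19.6% of the whole genome. Chromosome X had 36 of 97, or 37.1% (27.5 to 47.5). It was followed by chromosome 22 with 26.9% (20.8 to 33.8, 52 sites), chromosome 19 with 26.4% (22.1 to 31.0, 105 sites), chromosome 6 with 26.1% (21.6 to 31.0, 93 sites) and chromosome 20 with 25.9% (20.3 to 32.2, 57 sites). At the other end were chromosome 18 with 12.6% (6.89 to 20.6, 13 sites), chromosome 9 with 15.1% (11.1 to 19.9, 42 sites), chromosome 13 with 15.1% (9.22 to 22.8, 18 sites), chromosome 5 with 15.7% (11.9 to 20.2, 50 sites) and chromosome 1 with 15.98% (13.4 to 18.8, 116 sites). Over all LNCaP-abl peaks, strong or not, the share was 57.8%, and these chromosomes lay on the same sides of it. It was 71.6% on X, 66.4% on 19, 63.6% on 22, 62.1% on 6 and 59.1% on 20. It was 44.8% on 18, 49.5% on 13, 52.0% on 1, 53.1% on 9 and 54.5% on 5. The intervals for chromosomes 20 (55.1 to 63.0) and 5 (51.2 to 57.9) held 57.8%. These all-peak shares include the strong peaks, so they do not show whether the direction held among the weaker peaks alone. No site was on chromosome Y, where LNCaP-abl had 19 peaks. Intervals cover counting error only, treat peaks as independent and were not adjusted for the 23 chromosomes compared.

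**Figure D5:**
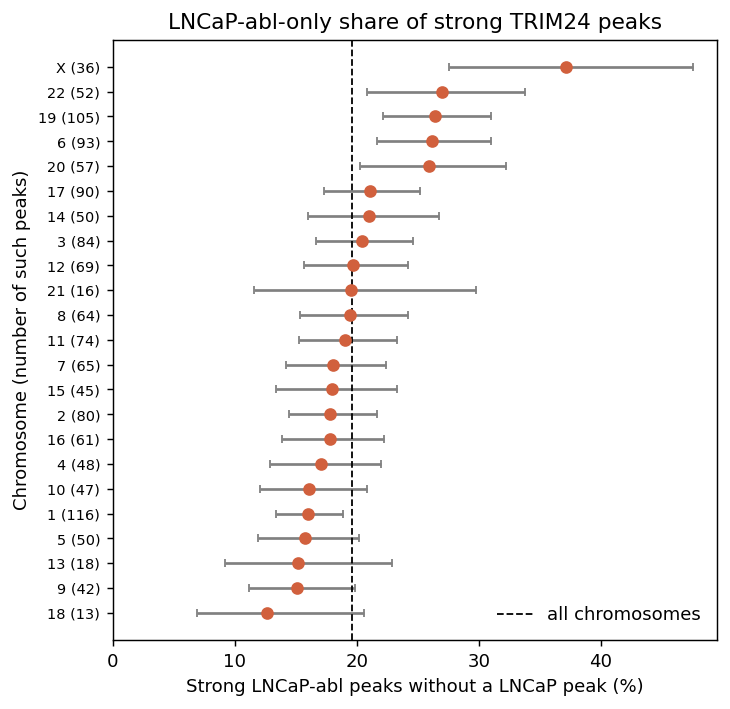
Share of strong LNCaP-abl TRIM24 peaks without a LNCaP peak (horizontal axis, %) on each chromosome (vertical axis, number of such peaks in brackets); points are shares, bars exact 95% intervals and the dashed line the share over all chromosomes. Chromosome X stands highest at 37.1% and chromosome 18 lowest at 12.6%.

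As a ratio, chromosome X held 2.62% of the 1375 sites and 1.08% of the strong shared peaks, 2.42 times as much (1.56 to 3.71). It held 2.99% of the weaker LNCaP-abl-only peaks. By score range, the counts on X were small above 75. Between 50 and 75, 30 of 60 strong X peaks had no LNCaP peak (50%, 36.8 to 63.2), against 35.2% (33.3 to 37.1) on the other chromosomes. From 75 to 100 there were 3 of 19 (15.8%, 3.38 to 39.6) against 18.8% elsewhere, and from 100 to 150 there were 3 of 14 (21.4%, 4.66 to 50.8) against 9.03%. At 150 and over X had 0 of 4 (exact interval 0 to 60.2%). With a score minimum of 75 the ratio for X was 1.56 (0.531 to 3.79) and with 100 it was 2.94 (0.545 to 10.4), both on too few peaks to be set apart from 1. The corresponding ratios with the minimum of 50 were 1.51 (1.08 to 2.09) for chromosome 22, 1.47 (1.16 to 1.84) for chromosome 19, 1.45 (1.13 to 1.84) for chromosome 6, 1.43 (1.04 to 1.95) for chromosome 20 and 0.78 (0.634 to 0.953) for chromosome 1. With the regions as chosen, these were the 6 chromosomes, X included, whose interval did not hold 1. Over 9 other settings the interval came to hold 1 in 8 for chromosome 20, in 4 for chromosome 22, in 3 for chromosome 19, in 2 for X and in 1 each for chromosomes 6 and 1. For chromosome 20 it held 1 already when LNCaP peaks within 1 kb counted as shared (1.36, 0.974 to 1.86). When overlap had to be reciprocal and at least 50%, the ratio for chromosome 19 was 1.01 (0.809 to 1.27).

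In windows of 10 Mb with at least 20 strong LNCaP-abl peaks, 139 in all, the share without a LNCaP peak had a median of 19.2% and ran from 0 to 40%. Chromosome 20 from 30 to 40 Mb had 20 of 57 (35.1%, 22.9 to 48.9), and chromosome 6 from 30 to 40 Mb 22 of 63 (34.9%, 23.3 to 47.97). Chromosome 19 from 10 to 20 Mb had 34 of 110 (30.9%, 22.4 to 40.4). The window on chromosome 7 from 20 to 30 Mb, which holds the highest-scoring site, had 9 of 26 (34.6%, 17.2 to 55.7). Chromosome 10 from 10 to 20 Mb had 0 of 20 (exact interval 0 to 16.8%), and chromosome 1 from 0 to 10 Mb had 7 of 73 (9.59%, 3.94 to 18.8). Of the 139 intervals, 4 lay wholly above the 19.6% of the genome and 3 wholly below. These intervals cover counting error only, treat peaks as independent and were not adjusted for the 139 windows. Among so many windows, a few intervals can miss the genome share by counting error alone. The windows named here were picked by their values, and whether any of them differs from the genome beyond counting error was not tested.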

How the data were processed

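The deposited values are 3 TRIM24 peak lists, each named for 1 library, with 5 columns and no header. They were made with Bowtie 0.12.7, MACS2 2.0 and FastQC 0.10.0 in hg19, per the submitters' processing notes. The sources used here do not give the control, read filters or cutoff, and the 3 input libraries were not analysed here. The deposited score of each peak is the authors' −log10 of its p-value or its q-value; the lists do not say which. Depth is unknown. Distances count adjacent peaks as 1 bp apart; starts count from 1. Overlaps from Python 3.11.15 (numpy 2.4.6, pandas 2.3.3, scipy 1.17.1) and bedtools 2.31.1 differed for 0 of 20621 peaks, and the code recovered all 20621 planted distances in a simulated list. Shares carry exact Clopper-Pearson intervals and medians order-statistic intervals, at 95%. Figures were drawn with matplotlib 3.10.9.

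Sites named are the 12 highest-scoring, the 5 widest, those next to the score limit, and megabases with 4 or more sites, of which those with 6 or more and 5 others are described; the most remote sites and the 10 Mb windows were chosen after their values were seen. Members and rules were chosen with earlier results of these data known. Alternatives were other score minimums, other overlap rules and joined peaks. Gene positions, gene lists, base composition and motifs had been planned and need hg19 annotation or sequence, which were not used here.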

Additional observations from a re-analysis of the deposited data

How the results depend on the processing

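No paired analysis was possible because no condition had a second library; likewise none could be left out. Values follow as the number of strong LNCaP-abl-only peaks, their share of strong LNCaP-abl peaks and their median width. A score minimum of 40 gave 23.7% and 747 bp, with 1940 peaks. A minimum of 75 gave 505 peaks, 11.1% and 818 bp, and 1.56 for the chromosome X ratio. A minimum of 100 gave 181 peaks, 6.37% and 822 bp, and 2.94 for X. Without LNCaP peaks within 1 kb the share was 18.6%, and within 5 kb 17.3%. A reciprocal overlap of at least 50% gave 5060 peaks, 72.1% and 1025 bp, and reversed the width difference between shared and unshared peaks to −189.5 bp. Peaks set to 400 bp for the overlap alone gave 22.2%, and deposited widths with a median of 821 bp and a difference of 185 bp. Counting LNCaP peaks with a score of at least 5 gave 2074 peaks, 29.6%, 829.5 bp and a difference of 210 bp. Joining LNCaP-abl peaks less than 1 kb apart, chosen after seeing the data, gave a median width of 827 bp. Higher minimums use fewer peaks; for the other changes the cause was not tested. Of 63 ratios for chromosomes 1, 6, 9, 18, 19, 20 and 22 under these settings, 58 stayed within their interval and 0 reversed, but intervals that had left out 1 came to hold it in 8 of 9 settings for chromosome 20, 4 for 22, 3 for 19 and 1 each for 6 and 1. Results on genes and motifs were not run. The unknown depth limits any reading of an absent peak.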

Other observations

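Scores among the 1375 strong LNCaP-abl-only sites repeated. They took 632 distinct values, and 1006 sites shared their score with at least 1 other. The most common value, 51.8, belonged to 16 sites.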
